A study of Mus musculus with 32 samples.

Results

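The genes described here are the neurexins Nrxn2 and Nrxn3, the neuroligins Nlgn1, Nlgn2 and Nlgn3, and the leucine-rich repeat genes Lrrtm1, Lrrtm2 and Lrrc4c. They were taken by exact gene symbol from 16 lists of peaks of N4-acetylcytidine (ac4C), an acetylated cytidine in RNA, in the mouse hippocampus. All 8 symbols were found, on 211 of 148981 rows, among 13143 genes that the lists name. A row is 1 peak, a stretch of the genome where RNA fragments caught by an antibody against ac4C were enriched over the unselected input. Neurexins are presynaptic adhesion proteins, and neuroligins and the leucine-rich repeat proteins LRRTM1 and LRRTM2 are postsynaptic partners that bind them across the synaptic cleft. Together they are known to organise excitatory and inhibitory synapses, the hippocampus included.

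All samples came from the hippocampus of C57BL6/J mice, and the labels give no age, sex or number of animals per sample. The synapse fraction gave 1 list of group L and 1 of group C on each of days 1, 6 and 20. The homogenate gave 3 lists of L and 3 of C on day 6. The peak names inside the files read Learning for L and Control for C. A separate set held 2 lists of a conditional knockout, called cKO, and 2 lists of its controls. The peak names of that set carry the prefix AAV in both arms, and the labels name neither the deleted gene, the cells it was deleted in, the fraction nor the day. Nothing states that samples of a group came from separate animals, so p-values cover the spread between lists alone, and that spread may be technical. With no read counts in the files, the depth is unknown. Positions are of mm10, and gene spans are those of RefSeq on GRCm38.p6, the same assembly. An absent peak is a peak that did not pass the authors' threshold, and fewer cells with a transcript, less transcript per cell and less ac4C cannot be told apart in these bulk samples.

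The lists differed in size and form. Synapse lists held 5586 to 7293 peaks, homogenate lists 15182 to 16971, cKO lists 1887 and 422, and control lists 4446 and 5132. The shortest peak was 125 to 175 bp in the synapse L lists and 200 bp in each synapse C list. It was 200 bp in the homogenate lists, 150 and 500 bp in the cKO lists and 150 and 200 bp in the control lists. The median peak was 188 to 229 bp in the synapse L lists and 278 to 381 bp in the synapse C lists. Counts of synapse L against C therefore compare lists of unlike peak widths. The synapse L list of day 6 ends in file order on chromosome 7, so it does not reach Nlgn3 on the X chromosome, and tests of synapse against homogenate used the range that every list reaches. Markers of cell types were counted as a description, which does not test the hippocampal label. Of 10 markers of excitatory neurons, 6 or 7 had a peak in each synapse list and 7 to 9 in each homogenate list. Of 6 endothelial markers, 0 had a peak in any synapse list and 1 to 3 in each homogenate list. Astrocyte markers numbered 3 to 6 of 6 in the synapse lists and 4 to 6 in the homogenate lists, and oligodendrocyte markers 1 to 5 of 6 in the synapse lists and 5 or 6 in the homogenate lists. Interneuron markers numbered 2 to 4 of 6 in the synapse lists and 2 to 5 in the homogenate lists. For microglia it was 4 or 5 of 6 in the synapse lists and 3 to 6 in the homogenate lists. These counts go by the name on the row. Counting only peaks inside the named marker, microglia markers numbered 2 to 4 in the synapse and 2 to 5 in the homogenate lists. In the synapse lists astrocyte markers then numbered 2 to 6 and oligodendrocyte markers 0 to 5, and the other ranges stayed the same. The synapse L list of day 6 cannot show markers beyond its end. The part of other cells in the results below was not tested.

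How many peaks the 8 genes had in the synapse and the homogenate lists depended on how a peak was assigned to a gene. By the name on the row, each synapse list held 11 to 21 peaks of these genes, against 11 to 20 in each homogenate list. The mean was 16.2 ± 3.6 in the synapse lists and 13.7 ± 3.27 in the homogenate lists (SD, n = 6 each). By place, counting any peak inside one of the 8 genes whatever its name, each synapse list held 8 to 19 and each homogenate list 13 to 23, and the order of the means turned, to 12.5 ± 4.32 in the synapse lists and 16.8 ± 3.54 in the homogenate lists (SD, n = 6 each). As a share of all peaks of a list, named peaks made 0.197% to 0.327% in the synapse lists and 0.0657% to 0.132% in the homogenate lists, without overlap. By place the shares overlapped, at 0.11% to 0.296% in the synapse lists and 0.0801% to 0.151% in the homogenate lists. By name, on day 1 the L and the C synapse list each had peaks of all 8 genes, and 6 to 8 genes had one in each synapse list. In the homogenate it was 5 to 8 genes per list, and by place 5 to 7 in each list of either fraction. The third homogenate L list, with 20 named peaks and all 8 genes, stood above the other 5 homogenate lists, which had 11 to 14. The cKO lists held 3 and 0 named peaks of these genes, against 14 and 15 in the control lists. By place the cKO lists held 2 and 0, against 8 and 10 in the control lists.

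**Figure D1:**
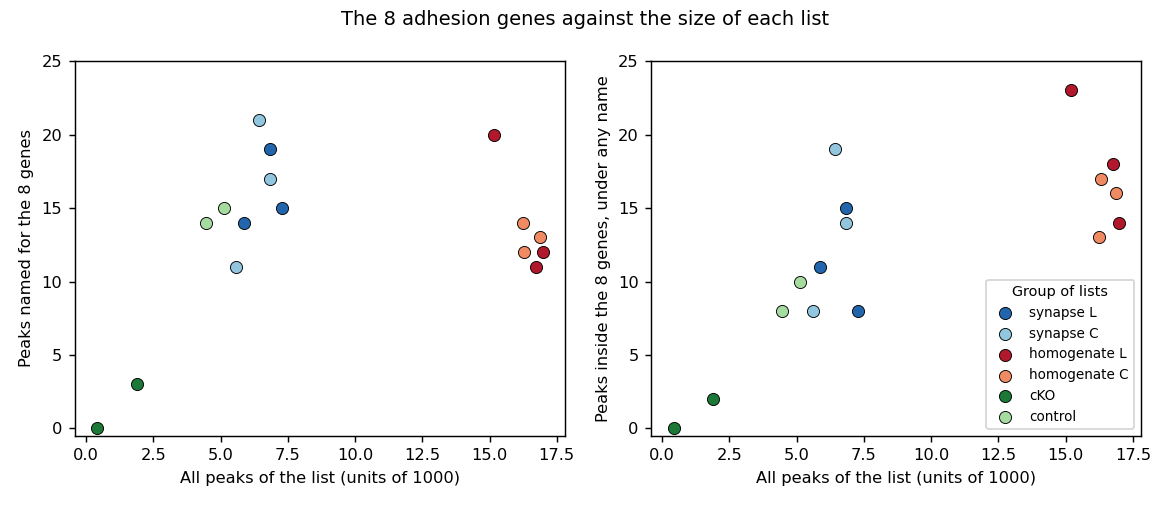
Peaks of the 8 genes by the name on the row (left) and by place, inside one of the genes under any name (right), against all peaks of a list in units of 1000. Each point is 1 list. By name, synapse lists lie at 11 to 21 and homogenate lists at 11 to 20; by place, synapse lists lie at 8 to 19 and homogenate lists at 13 to 23, and the cKO lists lie lowest in both panels.

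The name on a row did not always fit its place. Of the 211 rows, 154 overlapped the annotated span of the gene they name and 57 did not. All rows of Nrxn3 (35), Nlgn1 (17) and Nlgn2 (17) lay in their own gene. Of 24 rows named Lrrtm2, only 1 lay in Lrrtm2 (chr18:35209003-35215024). Another 15 lay elsewhere in Ctnna1, the alpha-catenin gene that contains Lrrtm2, and 8 in its neighbour Sil1, which encodes an endoplasmic reticulum co-chaperone. Of 61 rows named Nlgn3, 35 lay in Nlgn3, 20 in Med12, a Mediator subunit gene that ends just before it, and 6 in no annotated gene. Of 33 rows named Nrxn2, 3 lay before it in Rasgrp2, a guanine nucleotide exchange factor gene. Of 9 rows named Lrrtm1, 2 lay in Ctnna2 only, the neuronal alpha-catenin gene that contains Lrrtm1. Of 15 rows named Lrrc4c, 3 lay in no gene just before its start.

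The reverse also occurred. A further 42 peaks lay inside the span of one of these genes under a neighbour's name. They were 19 peaks in Nrxn2 named Slc22a12, a urate transporter gene, 14 in Nlgn2 named Spem1, a spermatid gene, 5 in Nrxn3 named Dio2, a deiodinase gene, and 4 in Nlgn1 named Naaladl2. The peaks named Slc22a12 and Spem1 were all in homogenate lists, and no synapse, cKO or control list names either gene anywhere. Counts below are by name, as the lists have them, unless they are said to be by place.

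**Figure D2:**
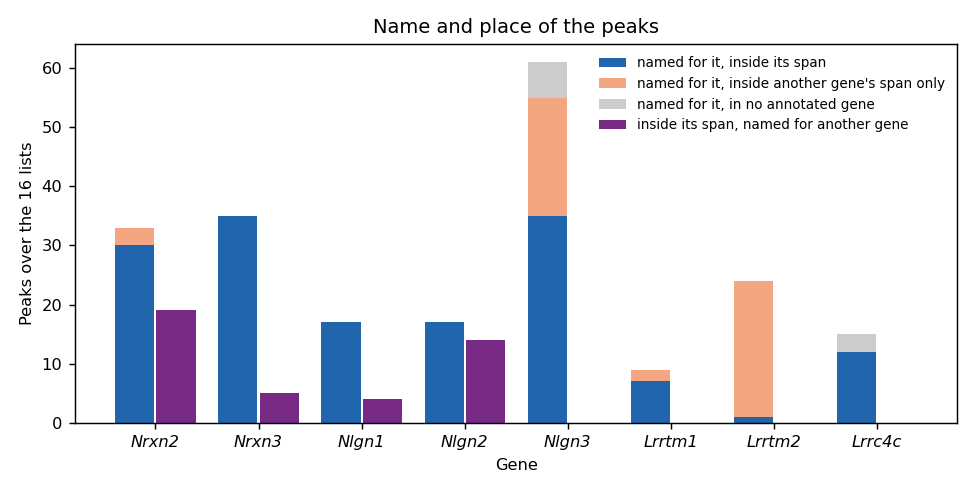
Peaks over the 16 lists for each gene. The left bar splits the rows named for the gene into those inside its span, inside another gene's span only, and in no annotated gene; the right bar counts peaks inside its span that carry another gene's name. Lrrtm2 stands out with 1 of 24 rows inside its own span.

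**Figure D3:**
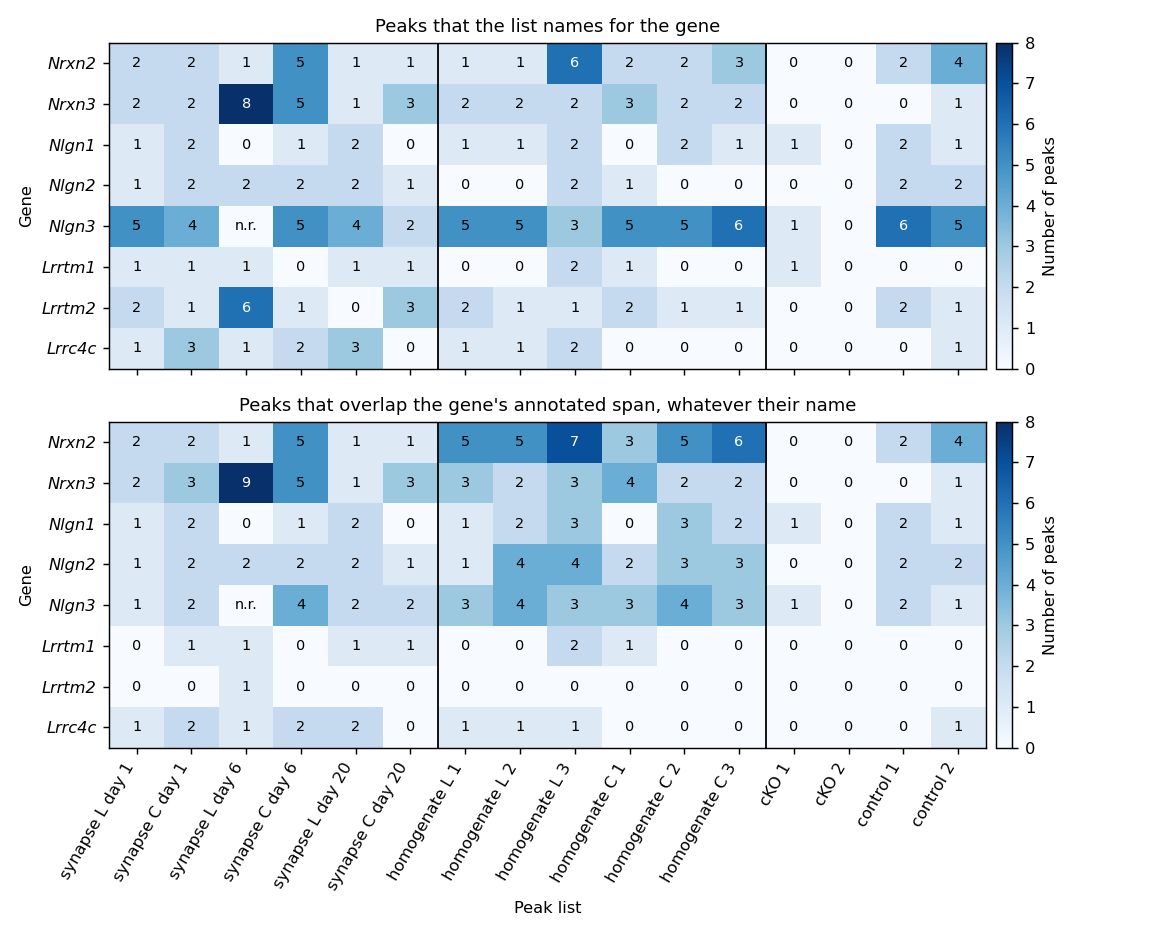
Number of peaks per gene (rows) and list (columns), by the name in the list (top) and by place (bottom). Shading follows the number printed in each cell, and n.r. marks a list that does not reach the gene. Nlgn2 is at 0 in 4 of 6 homogenate lists by name and at 1 to 4 in every homogenate list by place.

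Taken over overlapping peaks of all lists, the rows of both kinds fell into 65 regions, numbered here along the chromosome for each gene. A wide peak of 1 list can join peaks of other lists that share no base, so lists with a peak in a region need not share a place. Of these, 23 were seen in 1 list only and 8 in at least 8 of the 16 lists. Widths of the 211 named peaks ran from 125 to 3410 bp with a median of 338 bp.

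**Figure D4:**
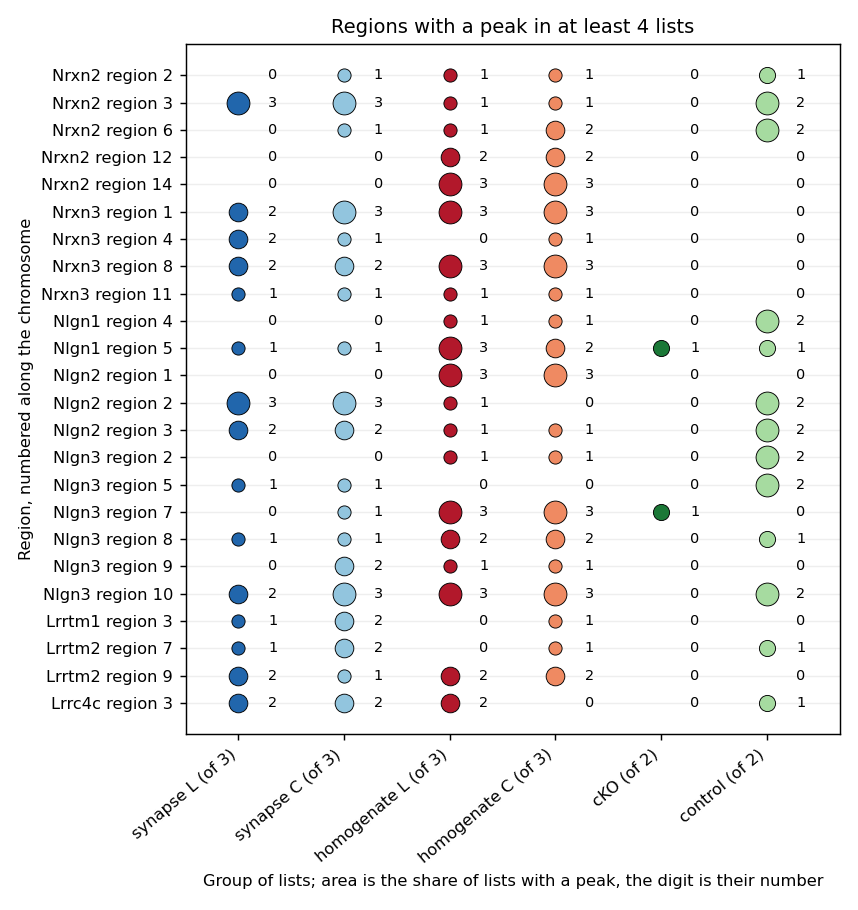
Regions with a peak in at least 4 of the 16 lists. The area of a circle is the share of a group's lists that have a peak there, and the digit beside it is their number (1 of the 3 synapse L lists does not reach Nlgn3). Nlgn2 region 1 and Nrxn2 region 14 have 0 of 6 synapse lists and 6 of 6 homogenate lists, while Nlgn2 region 2 has 6 of 6 synapse lists and 1 of 6 homogenate lists.

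Nrxn3, a very long neurexin gene (chr12:88722701-90334935), was marked at annotated starts. Neurexin genes are known for an upstream promoter that gives the long alpha form and an internal promoter that gives the short beta form. By name, Nrxn3 had 2, 8 and 1 peaks in the synapse L lists of days 1, 6 and 20 and 2, 5 and 3 in the synapse C lists. It had 2, 2 and 2 in the homogenate L lists, 3, 2 and 2 in the homogenate C lists, 0 and 0 in the cKO lists and 0 and 1 in the control lists. Both day 6 synapse lists were above every other list. The table of RefSeq start windows used here holds 3 starts for it, numbered along the gene, all of them inside the span. Start 1 (chr12:88794504) lies well inside the gene, which begins at 88722701, and no list had a peak at that beginning. Which starts give the alpha or the beta form was not tested. Peaks lay at starts 1 and 3. Region 1 (chr12:88794367-88796629) covers start 1 and had a peak in 5 of 6 synapse lists and 6 of 6 homogenate lists. In the synapse only the day 6 lists had a peak at the start itself, 4 bp (L) and 6 bp (C) downstream. The peaks of the C lists of days 1 and 20 and the L list of day 20 began 865, 1008 and 916 bp downstream. They are joined to the peaks at the start only through the wide peaks of the first homogenate L and C lists. Region 8 (chr12:89812405-89813568) covers start 3 and had a peak in 4 of 6 synapse lists and 6 of 6 homogenate lists. No list had a peak over the window of start 2. No cKO or control list had a peak in region 1 or region 8.

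The windows of these 2 starts are shown because peaks of 8 lists each lie over them. They are RefSeq sequences of GRCm38.p6 on the plus strand, chr12:88794254-88794553 and chr12:89812233-89812532, with the 50 bases from the start onward in capitals.
Nrxn3 start 1: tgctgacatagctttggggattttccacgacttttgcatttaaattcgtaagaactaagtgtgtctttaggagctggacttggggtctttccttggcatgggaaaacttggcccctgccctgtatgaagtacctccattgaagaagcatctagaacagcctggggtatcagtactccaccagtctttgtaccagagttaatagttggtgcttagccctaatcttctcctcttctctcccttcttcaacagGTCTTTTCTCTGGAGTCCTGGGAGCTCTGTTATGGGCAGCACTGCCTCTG
Nrxn3 start 3: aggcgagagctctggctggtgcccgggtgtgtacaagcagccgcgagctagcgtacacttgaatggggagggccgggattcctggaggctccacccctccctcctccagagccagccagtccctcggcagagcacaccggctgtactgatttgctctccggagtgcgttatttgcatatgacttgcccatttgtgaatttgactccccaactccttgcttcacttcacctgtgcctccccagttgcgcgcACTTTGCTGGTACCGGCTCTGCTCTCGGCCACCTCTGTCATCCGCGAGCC
Their GC content was 47.3% at start 1 and 60.7% at start 3, against a median of 52.7% over 32851 such windows.

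On day 6, Nrxn3 averaged 6.5 ± 2.12 peaks in the synapse lists (n = 2) and 2.17 ± 0.408 in the homogenate lists (n = 6; SD). The difference of 4.33 peaks had an exact permutation p of 0.0357, the smallest that 28 assignments can give, and an adjusted p of 0.273 over 10797 genes, so it did not pass. Over all days the mean was 3.5 ± 2.59 in the synapse lists and 2.17 ± 0.408 in the homogenate lists (SD, n = 6 each), with an exact permutation p of 0.379 and an adjusted p of 0.686. The day 6 L list, which also holds many peaks of 150 bp, placed 3 of its 8 peaks in region 1. With bases covered in place of number, Nrxn3 had 1950 ± 110 bp in the day 6 synapse lists and 1740 ± 1100 bp in the homogenate lists.

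Nrxn2 (chr19:6418756-6533217) had most of its synapse peaks near its low-coordinate end. It had 2, 1 and 1 named peaks in the synapse L lists of days 1, 6 and 20 and 2, 5 and 1 in the synapse C lists. It had 1, 1 and 6 in the homogenate L lists, 2, 2 and 3 in the homogenate C lists, 0 and 0 in the cKO lists and 2 and 4 in the control lists. Region 3 (chr19:6427515-6428969) had a peak in 6 of 6 synapse lists, 2 of 6 homogenate lists and both control lists. It holds 2 separate places, up to 6428286 and from 6428541, joined only by a 1233 bp peak of the synapse C list of day 1. Of the other synapse lists, L of day 6 and C of day 20 had the first place alone. L of days 1 and 20 had the second alone, and C of day 6 had both. In the C list of day 6, one peak of region 3 had the authors' fold enrichment of 45.3, at the 96.1 percentile of that list. Another peak of that list there had a fold of 2.1, at the 0.951 percentile. In the other synapse lists the fold was 3.83 to 23.3. Region 14 (chr19:6530204-6533239), at the high-coordinate end, had a peak in 0 of 6 synapse lists and 6 of 6 homogenate lists, all named Slc22a12. The authors' fold there was 11.4 to 50.5, and the peaks were 1498 to 3021 bp wide.

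Nlgn1 (chr3:25421808-26332866), the neuroligin best known from excitatory synapses, also had peaks at its annotated starts. By name it had 1, 0 and 2 peaks in the synapse L lists of days 1, 6 and 20 and 2, 1 and 0 in the synapse C lists. It had 1, 1 and 2 in the homogenate L lists, 0, 2 and 1 in the homogenate C lists, 1 and 0 in the cKO lists and 2 and 1 in the control lists. Region 5 (chr3:26331351-26332012), at start 1 of the 2 in the table, had a peak in 2 of 6 synapse lists and 5 of 6 homogenate lists, and in 1 cKO list and 1 control list. Region 4 (chr3:26153578-26154072), at start 2, had a peak in 0 of 6 synapse lists, 2 of 6 homogenate lists and both control lists. Region 3 (chr3:26133485-26133902), about 20 kb into the gene from start 2, had a peak in 3 synapse lists, L and C of day 1 and L of day 20, and in no homogenate list. Its exact permutation p was 0.182 and its adjusted p 0.794 over all regions, and without the synapse L list of day 6 they were 0.0606 and 0.368.

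The windows of both Nlgn1 starts are shown because 4 lists each have a peak over them. They lie on the minus strand at chr3:26331860-26332159 and chr3:26153937-26154236 and are printed 5′ to 3′ along the gene, again from RefSeq on GRCm38.p6 with the 50 bases from the start in capitals.
Nlgn1 start 1: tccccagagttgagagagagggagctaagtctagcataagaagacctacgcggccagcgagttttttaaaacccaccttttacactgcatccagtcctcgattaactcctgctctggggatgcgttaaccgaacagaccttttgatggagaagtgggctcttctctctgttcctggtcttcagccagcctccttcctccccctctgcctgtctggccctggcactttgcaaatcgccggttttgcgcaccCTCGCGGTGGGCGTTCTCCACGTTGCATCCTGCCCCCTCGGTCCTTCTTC
Nlgn1 start 2: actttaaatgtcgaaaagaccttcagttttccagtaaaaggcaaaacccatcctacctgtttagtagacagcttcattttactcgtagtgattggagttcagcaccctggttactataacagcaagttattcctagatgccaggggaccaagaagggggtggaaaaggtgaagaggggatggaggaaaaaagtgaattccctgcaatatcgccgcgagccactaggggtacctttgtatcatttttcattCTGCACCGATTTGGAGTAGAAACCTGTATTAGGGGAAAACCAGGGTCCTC

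Nlgn2 (chr11:69823123-69837784), the neuroligin known from inhibitory synapses, had peaks at its far end in homogenate lists only. At and near its start, lists of both fractions had peaks. By name it had 1, 2 and 2 peaks in the synapse L lists of days 1, 6 and 20 and 2, 2 and 1 in the synapse C lists. It had 0, 0 and 2 in the homogenate L lists, 1, 0 and 0 in the homogenate C lists, 0 and 0 in the cKO lists and 2 and 2 in the control lists. It was thus in every synapse list and every control list but in only 2 of 6 homogenate lists. Region 2 (chr11:69833881-69835013), about 3 kb downstream of the start, had a peak in 6 of 6 synapse lists and 1 of 6 homogenate lists. The peak of the synapse L list of day 20 ended at 69834418, before that of the synapse L list of day 1 began at 69834556. The authors' fold in region 2 reached 75.6 in the synapse C list and 62.0 in the synapse L list of day 6, at the 99.0 and 96.2 percentile of their lists. In the synapse lists of days 1 and 20 it was 2.53 to 9.34, below the 11.7 of the third homogenate L list. Region 3 (chr11:69836409-69837817), at the start, had a peak in 4 of 6 synapse lists and 2 of 6 homogenate lists. Region 1 (chr11:69823053-69828570), at the far end of the gene, had a peak in 0 of 6 synapse lists and 6 of 6 homogenate lists, all named Spem1.

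The window of the Nlgn2 start is shown because 5 lists have a peak over it. It lies on the minus strand at chr11:69837735-69838034, with the 50 bases from the start in capitals.
Nlgn2 start 1: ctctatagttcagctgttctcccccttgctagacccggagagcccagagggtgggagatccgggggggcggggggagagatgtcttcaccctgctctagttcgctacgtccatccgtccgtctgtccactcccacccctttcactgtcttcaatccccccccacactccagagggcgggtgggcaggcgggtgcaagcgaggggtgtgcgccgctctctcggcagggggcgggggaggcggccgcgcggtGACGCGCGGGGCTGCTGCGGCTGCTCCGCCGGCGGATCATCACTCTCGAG
Its GC content was 68.7%, the highest among the 8 windows of these genes. The motif CNNCNNCNN, searched in the 50 bases from the start with overlapping matches counted, occurred at 6 places on the sense strand and 5 on the other strand. At Nlgn1 it occurred at 2 places of start 1 and 1 of start 2 on the sense strand, and at Nrxn3 at 1 place of start 1 and 3 of start 3. Among all windows, 49.3% held at least 1 match on the sense strand and 78.6% on either strand, so a match is common and is given as a description only.

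**Figure D5:**
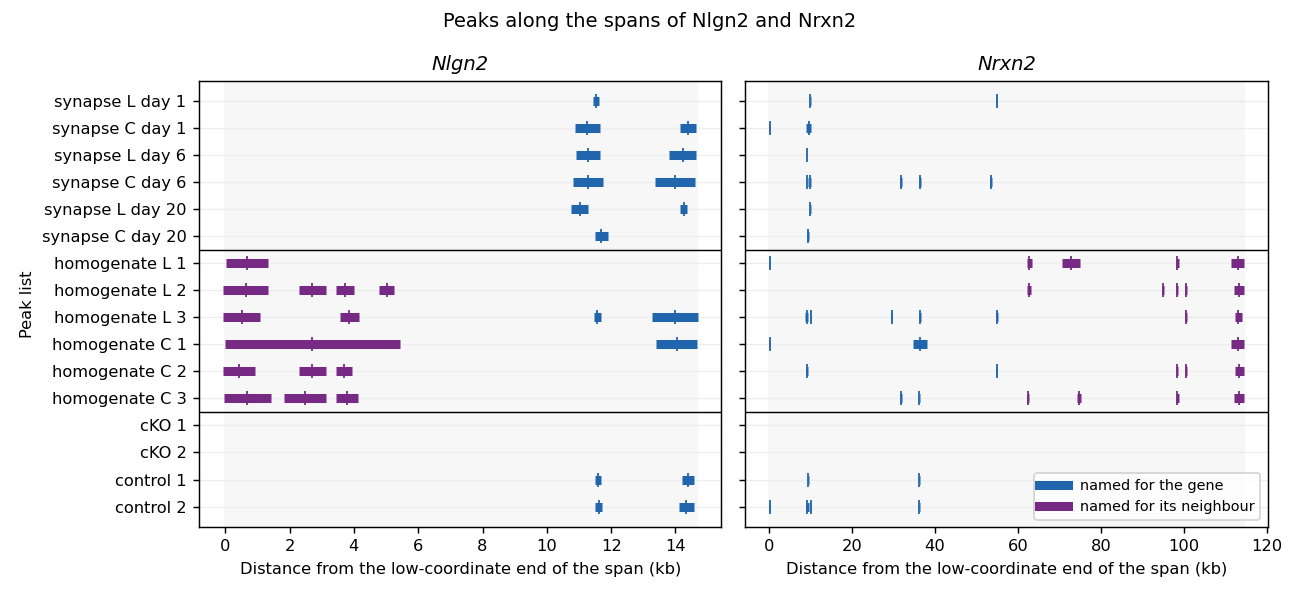
Peaks of each list along Nlgn2 (left) and Nrxn2 (right), by distance from the low-coordinate end of the span in kb; bars are peaks, ticks mark their middle, and the grey field is the span. Nlgn2 is transcribed from right to left. Peaks named for the neighbour lie in the left part of Nlgn2 and the right part of Nrxn2 in the homogenate lists and are in none of the other lists.

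By name, Nlgn2 averaged 1.67 ± 0.516 peaks in the synapse lists and 0.5 ± 0.837 in the homogenate lists (SD, n = 6 each). The difference of 1.17 had an exact permutation p of 0.0476 and an adjusted p of 0.164 over 10862 genes. Without the third homogenate L list the adjusted p was 0.0487, in a permutation that takes each list as independent. By place, the direction turned: Nlgn2 averaged 1.67 ± 0.516 peaks in the synapse lists and 2.83 ± 1.17 in the homogenate lists (SD, n = 6 each), with an exact permutation p of 0.0974 and an adjusted p of 0.251. Nrxn2 by place averaged 2.0 ± 1.55 peaks in the synapse lists and 5.17 ± 1.33 in the homogenate lists (SD, n = 6 each), with an exact permutation p of 0.0108 and an adjusted p of 0.0597.

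No gene tested here passed in the comparison of synapse with homogenate by name. Over all days, 0 of 7 genes in the shared range were called higher in the synapse lists, against 0.129% of 10862 genes, and 0 were called lower, against 15.5%. The unadjusted p was under 0.05 for 3040 of all genes. The median difference of synapse minus homogenate over the 7 genes was 0.833 peaks by name and 0.167 by place, against 0.167 over 46 other synaptic adhesion genes and -0.5 over all genes tested, both by name. On day 6 alone, no gene of the whole table passed (0.0% higher and 0.0% lower), with 1415 genes at an unadjusted p under 0.05. A peak in every homogenate list and no synapse list of day 6 was seen for 0 of these genes, against 16.9% of 10797 genes. Nlgn3 was compared without the synapse L list of day 6. It averaged 4.0 ± 1.22 peaks in the synapse lists (n = 5) and 4.83 ± 0.983 in the homogenate lists (n = 6; SD), with an exact permutation p of 0.314 and an adjusted p of 0.558.

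The place of the peaks was compared region by region over all genes, by presence in a list. Over all days, 3.93% of 38682 regions had a peak in every homogenate list and no synapse list. Of the 65 regions of these genes, not all of them tested, Nlgn2 region 1 and Nrxn2 region 14 did. These 2 make a share near that of all regions. Each of the 2 had an exact permutation p of 0.00216 and an adjusted p of 0.0545, and no region of any gene was called lower (0.0%). Without the synapse L list of day 6, which allowed all chromosomes, both had an adjusted p of 0.0496 and were called lower in the synapse lists, as were 4.3% of 43655 regions. That test takes each list as independent. With the L and C lists of 1 number or day averaged as 1 unit, 3 against 3, both calls were lost, with an exact permutation p of 0.1, the smallest that 20 assignments can give, and an adjusted p of 0.71 (0.727 with the synapse L list of day 6), so no region could pass. Nlgn2 region 2, higher in the synapse lists, had an exact permutation p of 0.0152 and an adjusted p of 0.172 over all days.

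Nlgn3 (chrX:101299179-101321350), a neuroligin found at both kinds of synapse, had the most rows of the 8 genes by name, 61, but 35 peaks by place, fewer than Nrxn2 (49) and Nrxn3 (40). By name it had 5 and 4 peaks in the synapse L lists of days 1 and 20 and 4, 5 and 2 in the synapse C lists of days 1, 6 and 20. It had 5, 5 and 3 in the homogenate L lists, 5, 5 and 6 in the homogenate C lists, 1 and 0 in the cKO lists and 6 and 5 in the control lists. By place the numbers were smaller, 1 and 2 in the synapse L lists of days 1 and 20, 2, 4 and 2 in the synapse C lists, 3 or 4 in each homogenate list and 2 and 1 in the control lists. Region 7 (chrX:101299061-101300097), at the low-coordinate end next to Med12, had a peak in 1 of 5 synapse lists, C of day 6, and in 6 of 6 homogenate lists. The authors' fold there was 88.1 in the second homogenate L list, at its 98.5 percentile. Region 10 (chrX:101319339-101322828), at the other end, had a peak in 5 of 5 synapse lists, 6 of 6 homogenate lists, both control lists and no cKO list. Region 7 had an exact permutation p of 0.0152 and an adjusted p of 0.152 against the homogenate.

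Lrrtm1 (chr6:77229210-77259915) and Lrrtm2 encode postsynaptic neurexin ligands of excitatory synapses, and neither had many peaks of its own. Lrrtm1 had 1, 1 and 1 named peaks in the synapse L lists of days 1, 6 and 20 and 1, 0 and 1 in the synapse C lists. It had 0, 0 and 2 in the homogenate L lists, 1, 0 and 0 in the homogenate C lists, 1 and 0 in the cKO lists and 0 and 0 in the control lists. Its region 3 (chr6:77244198-77245424) had a peak in 3 of 6 synapse lists and 1 of 6 homogenate lists. Lrrtm2 had 2, 6 and 0 named peaks in the synapse L lists and 1, 1 and 3 in the synapse C lists. It had 2, 1 and 1 in the homogenate L lists, 2, 1 and 1 in the homogenate C lists, 0 and 0 in the cKO lists and 2 and 1 in the control lists. The one peak inside Lrrtm2 was in the synapse L list of day 6, 150 bp wide. Since Lrrtm1 and Lrrtm2 lie inside alpha-catenin genes, their peaks cannot be told apart from peaks of those genes.

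Lrrc4c (chr2:96318169-97631672), a postsynaptic binding partner of netrin-G1, was the gene that set L apart from C in the homogenate by name. It had 1, 1 and 2 peaks in the homogenate L lists and 0, 0 and 0 in the homogenate C lists. In the synapse it had 1, 1 and 3 peaks in the L lists of days 1, 6 and 20 and 3, 2 and 0 in the C lists, so L was lower than C on days 1 and 6 and higher on day 20. It had 0 and 0 in the cKO lists and 0 and 1 in the control lists. The homogenate L peaks did not share a place. The first L list had its peak over the start (chr2:96317988-96318464, fold 2.34, at the 8.31 percentile of its list). Lists 2 and 3 of L had overlapping peaks in region 3 (chr2:97466409-97467878), and list 3 had another just before the start. Region 3 also had a peak in 4 of 6 synapse lists, L and C alike, and in 1 control list. Region 5 (chr2:97630002-97631039), near the far end, had a peak in 3 of 6 synapse lists and 0 of 6 homogenate lists.

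In the homogenate on day 6, 1 of the 8 genes, Lrrc4c, had a peak in every L list and no C list, against 0.271% of 12908 genes. None had one in every C list and no L list, against 0.209%. Lrrc4c differed by 1.33 peaks with an exact permutation p of 0.1, the smallest that 20 assignments can give, so no gene could pass (0.0% higher, 0.0% lower, and 0 genes at an unadjusted p under 0.05). With the replicate number as a block, its exact p was 0.25, the smallest that 3 pairs can give. With only peaks of fold at least 5, or of −log10 p at least 10, it no longer had a peak in every L list. For the other 7 genes the L and C lists overlapped. Nlgn3 averaged 4.33 ± 1.15 peaks in L and 5.33 ± 0.577 in C, and Nrxn2 2.67 ± 2.89 in L and 2.33 ± 0.577 in C (SD, n = 3 each). By place, Nlgn3 averaged 3.33 ± 0.577 peaks in both L and C.

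In the synapse, 1 list per group and day allowed no test, and on each day the median peak was shorter in the L list than in the C list. On day 1, 0 of the 8 genes had a peak in the L list alone, against 17.9% of 4604 genes, and 0 in the C list alone, against 19.5%. On day 6, Lrrtm1 had a peak in the L list alone, as did 23.0% of 3790 genes in the shared range, and Nlgn1 in the C list alone, as did 17.5%. On day 20, Lrrc4c and Nlgn1 had a peak in the L list alone, as did 22.6% of 4331 genes, and Lrrtm2 in the C list alone, as did 23.2%. Under each filter on fold, −log10 p, width or place, at least 1 of these counts changed. None of the 7 genes that all synapse lists reach had more named peaks in L than in C on all 3 days. Nrxn3, for example, had 2, 8 and 1 peaks in L and 2, 5 and 3 in C. Nlgn3 had more in L on both days that could be compared, 5 and 4 in L against 4 and 2 in C. By place it did not, with 1 and 2 in L against 2 and 2 in C.

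In the cKO set, neither cKO list had a peak of Nlgn2, Nrxn2 or Lrrtm2, and each control list had one of all 3 genes. They were 3 of 8 genes, against 33.8% of 4188 genes with a peak in the set. The genes with this pattern changed with the filter. With only peaks of fold at least 5 they were Nlgn3 and Nrxn2, against 19.0% of all genes. With −log10 p of at least 10, or with peaks of at least 200 bp, they were Nlgn2, Nlgn3 and Nrxn2, against 42.7% and 32.2%. Nlgn2 had 0 and 0 peaks in the cKO lists and 2 and 2 in the control lists, in regions 2 and 3. Nrxn2 had 0 and 0 in the cKO lists and 2 and 4 in the control lists. The Lrrtm2 peaks of the control lists lay outside Lrrtm2, so by place it drops out. In the cKO lists only the first had peaks of these genes, 1 each for Nlgn1, Nlgn3 and Lrrtm1, of which the Lrrtm1 peak lay outside its span. Nlgn3 averaged 0.5 ± 0.707 peaks in the cKO lists and 5.5 ± 0.707 in the control lists (SD, n = 2 each). Its exact permutation p was 0.333, the smallest that 6 assignments can give, so no gene could be called lower (0.0%). By place the Nlgn3 difference was smaller, with 0.5 ± 0.707 peaks in the cKO lists and 1.5 ± 0.707 in the control lists (SD, n = 2 each) and an exact permutation p of 0.667. The cKO lists were smaller as a whole, and loss at these genes cannot be told apart from that.

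Starts of transcription were annotated in the table used for 5 of the 8 genes. Of their named peaks in the synapse lists, 19 of 52, or 36.5%, lay within 1000 bp of a start, against 32.7% of all synapse peaks of genes with a start. In the homogenate lists it was 23 of 30, or 76.7%, against 39.4%. With the peaks inside these genes under a neighbour's name added, 2 in the synapse and 21 in the homogenate lists and none of them near a start, the shares were 19 of 54, or 35.2%, in the synapse lists and 23 of 51, or 45.1%, in the homogenate lists. By name and gene it was 14 of 17 for Nlgn1, 22 of 35 for Nrxn3, 8 of 17 for Nlgn2, 4 of 15 for Lrrc4c and 0 of 9 for Lrrtm1.

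A list of 61 other synaptic adhesion and organizer genes gave a frame for these values. Each synapse list had a peak for 30 to 46 of them, against 41 to 49 in each homogenate list, 18 and 4 in the cKO lists and 29 in each control list. In the shared range, with each list taken as independent, 3 of 46 were called lower in the synapse lists, against 15.5% of 10862 genes. None were called higher, against 0.129%. The 3 were Adgrl3 and Lrfn4, which encode postsynaptic or trans-synaptic receptors, and Mdga1, which encodes a neuroligin-binding protein. Each of the 3 had a peak in all homogenate lists. None of the 61 had a peak in every homogenate L list and no C list, or the reverse. In the cKO set, 38 of the 61 had any peak, and 11 of these 38, or 28.9%, were marked in each control list and in no cKO list, against 33.8% of all genes with a peak in the set. They include Elfn1, Lrfn1, Mdga2 and Nptx1. Clstn1, Elfn2 and Lrrc4, a close relative of Lrrc4c, each had a peak in 15 of the 16 lists.

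The numbers of peaks over the 16 lists were also set against those of every other gene, as a description over lists that share their size. The most alike were Cstf2t for Nlgn3 (Pearson r = 0.91), Pkd1 for Nrxn3 (0.9), Ddn, a postsynaptic density gene, for Nlgn2 (0.88) and Tspan5 for Lrrtm2 (0.88). They were followed by Coq2 for Nrxn2 (0.87), Eif1a for Lrrtm1 (0.85), Fam131b for Lrrc4c (0.84) and Lrfn2 for Nlgn1 (0.82). Tspan5 had a peak in only 2 of the 16 lists and Eif1a in 6, so their r rests on few lists.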

How the data were processed

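Peak lists of 16 captured libraries of acRIP-seq were analysed, and 16 inputs have no list used here. Per the labels' protocols, total RNA was fragmented to about 200 nt and captured with an ac4C antibody. FastQC, cutadapt 1.9.3, HISAT2 2.0.4 and the build mm10 are listed in the submitters' processing notes. Which program called the peaks is not given in the sources used here. By the columns, each peak carries a fold enrichment (a ratio) and a −log10 p-value, per the file headers, and these deposited values were used only to rank or filter peaks within a list. Peaks were called per sample. The depth per sample is unknown.

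Older symbols were updated through RefSeq synonyms, which left 13143 genes and changed no row of the 8 genes. Numbers of peaks per gene were compared by exact two-sided permutation of lists over the whole table, with Benjamini-Hochberg adjustment and a threshold of 0.05 (Python 3.11.15, numpy 2.4.6, pandas 2.3.3). How the test behaves at numbers of peaks as low as those of most of the 8 genes was not tested. The genes, lists and tests were chosen with earlier results of these data known. Further genes were named by a fixed rule: up to 4 of the adhesion list per pattern, by number of lists and then alphabet, and those most alike in numbers of peaks; some genes it takes are not reported here. Counting by place and the test by region were chosen after seeing the data. Same-numbered L and C homogenate lists deviated together from their group means (r = 0.314, 0.221 and 0.116 over 12908 genes), so a test with the number as a block was added for L against C in the homogenate and for cKO against control; the main tests are unpaired. The labels give numbers alone, and the pairing rests on this check of the data. Alternatives were filters on fold, −log10 p, width and span, joining of near peaks, bases covered, the replicate block and leaving out each list.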

Additional observations from a re-analysis of the deposited data

Results flagged for a closer look

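Peaks inside 4 of the 8 genes under another gene's name were in data that counts by name do not use. They numbered 19 in Nrxn2 named Slc22a12, 14 in Nlgn2 named Spem1, 5 in Nrxn3 named Dio2 and 4 in Nlgn1 named Naaladl2. Each number was above the limit of 3 used for flagging, which is not a test, since the same places recur across lists. The Dio2 peaks were in 2 synapse and 3 homogenate lists, and the others in homogenate lists only.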

How the results depend on the processing

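The counts moved most with the filters on peaks. With only peaks of fold at least 5, the genes with a peak in every homogenate L list and no C list numbered 0, against 0.278% of all genes tested. Those in 1 synapse list alone were 2 (L) and 4 (C) on day 1, against 29.5% and 27.4% of all genes. On day 6 they were 0 (C), against 20.2%. On day 20 they were 4 (L) and 2 (C), against 33.0% and 31.4%. This filter left 39 regions. With −log10 p of at least 10 the homogenate count was also 0, against 0.265% of all genes. In that setting 2 genes were in the synapse L list of day 6 alone, against 23.8%. With peaks of at least 200 bp, 2 genes were in C alone on day 1, 0 in L alone and 4 in C alone on day 6, and 2 in C alone on day 20. With peaks inside the span of the named gene, and also counted by place, 1 gene was in C alone on day 1, 2 in L alone on day 6 and 0 in C alone on day 20. The shares of all genes were 22.5%, 26.0% and 25.5% in the first of these settings, which left 35 regions. By place they were 19.5%, 23.0% and 23.1%. Counted by place, the Nlgn2 difference of synapse minus homogenate reversed to -1.17. Leaving out each list in turn, with each list taken as independent, the number of genes called higher in the synapse ran from 0 to 1 (Nlgn2, without the third homogenate L list). The number with a peak in every control list and no cKO list ran from 3 to 5. It was 5 without the first cKO list (adding Nlgn1 and Nlgn3) and 5 without the first control list (adding Lrrc4c and Nrxn3). The pairing by replicate number changed no call: with the replicate block, 0 of these genes were called in the homogenate or the cKO set. Over all alternatives, the adjusted p of the Nlgn2 difference ran from 0.0487 to 0.318, and that of Nrxn3 on day 6 from 0.247 to 1.0. Why the counts moved was not tested. With 3 against 3 or 2 against 2 lists no gene could pass a test, and with the depth unknown an absent peak may be one that missed the authors' threshold.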
